A study of Mus musculus with 121 samples.

Results

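The genes described here are Nr1d1, Nr1d2 and Thra, 3 genes of the 31053 listed for each library, in mouse fibroblasts that had passed through cycles of glucose and insulin. Nr1d1 and Nr1d2 were chosen for the rise and fall of their RNA over the collections, known from earlier results of these data, and Thra was chosen for its position, because its 3′ end overlaps that of Nr1d1 on the other strand. The values by collection of Nr1d1 and Nr1d2 are therefore given as a description with no test of rhythm, while the rhythm of Thra, which was not used to choose it, and the mean level of all 3 genes between treatments were tested.

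Nr1d1 (REV-ERBα) and Nr1d2 (REV-ERBβ) encode nuclear receptors that bind heme and act as repressors. They sit on DNA elements shared with the ROR activators and recruit the NCoR corepressor complex with the deacetylase HDAC3, and the best known gene they hold down is Arntl, which encodes BMAL1. BMAL1 and CLOCK in turn activate both Rev-Erb genes through E-box elements, so the Rev-Erb genes form a second loop of the circadian clock next to the loop of the period and cryptochrome genes. Thra encodes thyroid hormone receptor α. It has a form that binds the hormone and, through another last exon, a form that does not, and it is this other last exon that meets the 3′ end of Nr1d1.

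All cells came from one immortalized mouse ear fibroblast line of the knockin genotype PER2::LUC sv, a reporter that joins PER2 to luciferase, at expansion passage P25. For 3 cycles the medium was exchanged every 12 h between one high in glucose and insulin (H) and one low in glucose without insulin (L). HL began each cycle with H, LH began it with L, and HH received H at every exchange. Cells were then left without further exchange. After 12 h of this, RNA was taken in 6 collections 4 h apart, here counted as 0 to 20 h from the first. Of the 62 libraries, 21 had the label HL, 22 LH and 19 HH, so that each treatment had 2 to 4 in a collection. The study's methods describe replicates in general as biological, and the labels give no culture or experiment for a library, so the errors and p-values measure the spread between these libraries. One line of cells carried all treatments, and no untreated culture is among the groups.

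The titles of the samples and the paper's read summary name many libraries differently. The read summary listed 57 of the 62 library numbers, and 35 of these had another name there, all of them in HL and LH. Treatment was the same in both sources for 26 of the 57, and treatment and collection for 22. Values of HL by number thus come largely from libraries titled LH, and the reverse. Every HH library and the 3 HL libraries of the first collection had the same name in both. Values are given by title, and the members' values in HL and LH also by the name of the library number. Which name is right cannot be told from these sources, and no value of a gene was used to decide it. Totals ran from 104912 to 11619095 counts (median 5825881). The library of 104912 counts belonged to LH at 4 h, and the next lowest total was 2136819. All 8 fibroblast markers were present in each library of over 1000000 counts, among them Col1a2 (5416 to 22020 CPM, counts per 1000000) and Thy1 (45.4 to 142.6 CPM). Of 9 markers of epithelial, blood, endothelial, muscle and fat cells, Krt5 was at 0 throughout, 7 including Krt5 had a median of 0, and the highest value in any library was 10.3 CPM, for Adipoq.

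On chromosome 11 (build GRCm38), the minus-strand gene Nr1d1 (ENSMUSG00000020889) spans bases 98767932 to 98775333 and the plus-strand gene Thra (ENSMUSG00000058756) bases 98740638 to 98769006. Their spans share 1075 bases. Nr1d2 (ENSMUSG00000021775) lies on chromosome 14 from 18204054 to 18239127 on the minus strand, apart from both. The libraries were made by 3′DGE, in which reads start near the 3′ end of a transcript, so the shared region matters for counting. The last exon of Nr1d1 has 488 bases. The last exon of the Thra transcript with the farthest 3′ end covers 197 coding and 66 untranslated bases of it, all of them coding in that Thra transcript. Of 9 annotated Thra transcripts, 2 reach the span of Nr1d1. Another protein-coding Thra transcript, with a nearer 3′ end, stops 2821 bases before it.

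**Figure D1:**
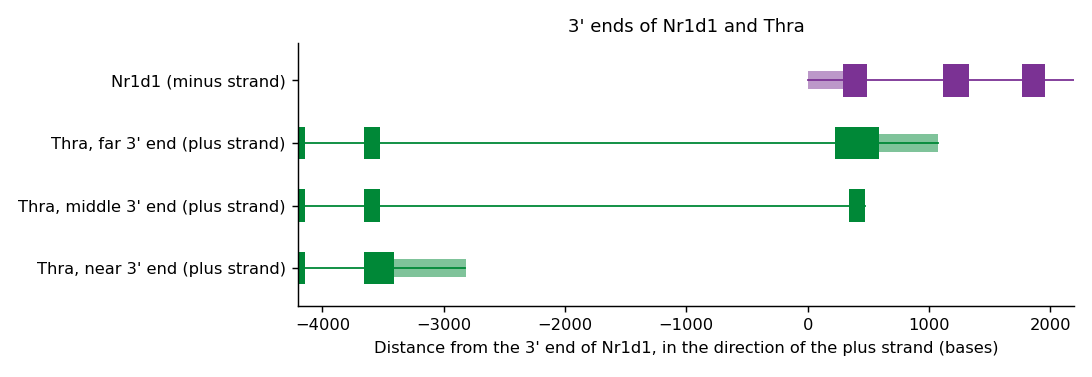
Annotated 3′ ends of Nr1d1 and of 3 protein-coding Thra transcripts, by distance in bases from the 3′ end of Nr1d1 in the direction of the plus strand; tall boxes are coding, low boxes untranslated, thin lines introns. The last exon of the Thra transcript with the far 3′ end lies across part of the last exon of Nr1d1, and the transcript with the near 3′ end stops 2821 bases short of it.

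Counting without regard to strand would leave a read in the shared exons without a gene or place it with either one. Whether strand was used is not given in the sources used here. Reads that could not be placed with a single gene made up 0.288% to 0.459% of uniquely aligned reads, over all genes, and the part of the overlap in the values of Nr1d1 and Thra was not tested. The levels of the 2 genes differed widely in range. Nr1d1 ran from 3.21 to 209.7 CPM over the 62 libraries, a 65.4-fold range, and Thra from 244.0 to 658.3 CPM, a 2.7-fold range. In 3′DGE a count does not grow with the length of the transcript, so these CPM are comparable between genes in so far as each has its 3′ end captured alike.

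Since Nr1d1 and Nr1d2 moved together over the collections, the 250 bases before their RefSeq starts are shown, read from the RefSeq promoter set of GRCm38.p6, which matched 2 of the 3 genes. Capitals mark the letters AGGTCA, the core of the element that REV-ERB and ROR proteins share. Nr1d1 is at chr11:98775378-98775627 and Nr1d2 at chr14:18239107-18239356, both on the minus strand.
Nr1d1: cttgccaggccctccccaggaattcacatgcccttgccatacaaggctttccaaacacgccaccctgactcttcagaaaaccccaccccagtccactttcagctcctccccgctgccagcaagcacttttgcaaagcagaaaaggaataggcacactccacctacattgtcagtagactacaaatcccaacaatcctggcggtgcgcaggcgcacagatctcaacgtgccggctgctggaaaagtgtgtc
Nr1d2: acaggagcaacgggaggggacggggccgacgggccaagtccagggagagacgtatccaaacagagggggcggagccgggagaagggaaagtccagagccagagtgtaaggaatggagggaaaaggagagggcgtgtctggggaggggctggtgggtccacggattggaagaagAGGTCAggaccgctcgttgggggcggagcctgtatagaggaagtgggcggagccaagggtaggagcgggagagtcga

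Of 3 patterns searched on both strands, the Nr1d1 window held none and the Nr1d2 window held AGGTCA once, at position -77 from the start. The E-box CACGTG was found in neither, and in 6.02% of 32817 such windows over all promoters. AGGTCA was in 14% of them. The direct repeat of AGGTCA with 2 bases between, which contains AGGTCA, was in 3 of the windows (0.00914%) and in neither gene's. These counts concern the letters in 250 bases only.

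Nr1d1 showed the clearest course in HH, whose names do not differ between the sources. At 0 h its values were 10.4, 13.3, 13.6 and 14.3 CPM, and at 4 h 35.8, 43.5 and 50 CPM. At 8 h they were 148.1, 161.0 and 163.0 CPM. The values of these collections did not overlap, and the 8 h values were the highest of the treatment. At 12 h the 2 libraries had 86.7 and 109.9 CPM, at 16 h the values were 25.1, 30.9 and 33.6 CPM, and at 20 h they were 3.21, 5.95, 16.4 and 18.2 CPM. The mean at 8 h was 157.4 ± 8.07 CPM (SD, n = 3) and that at 20 h 10.9 ± 7.46 CPM (SD, n = 4), a 14.4-fold range over the day. A 24 h cosine curve fitted to HH had a mean of 60.5 ± 5.52 CPM, an amplitude of 67.8 ± 7.62 CPM and a peak at 9.25 ± 0.442 h (SE, n = 19). The amplitude was 112.0% of the mean of the curve, as the rise was narrower than a cosine. In RNA of whole cultures, a change in the number of cells that carry an RNA and a change in its amount per cell cannot be told apart.

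By titles, Nr1d1 in HL was low for the first 3 collections. The values were 7.38, 11.1 and 15.5 CPM at 0 h, then 8.49, 12.5, 14.3 and 19.9 CPM at 4 h. At 8 h they were 11.9, 21.3 and 39.1 CPM. These 3 collections overlapped each other. From 12 h the means were higher and the libraries lay far apart, some of them below the 39.1 CPM library of 8 h, at 32.3, 41.5, 141.8 and 161.6 CPM at 12 h, 46.3, 88.9 and 152.3 CPM at 16 h and 22.7, 77.6, 86.4 and 98.8 CPM at 20 h. The fitted curve had an amplitude of 49.8 ± 11.4 CPM and a peak at 15.2 ± 0.873 h (SE, n = 21). The pooled SD between libraries of one collection was 39.1 CPM in HL and 7.41 CPM in HH.

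By titles, Nr1d1 in LH had 8.98, 14 and 14.9 CPM at 0 h and 18.3, 28.6 and 63 CPM at 4 h. The value of 28.6 CPM belongs to the library of 104912 counts and rests on 3 reads (95% exact Poisson interval 5.9 to 83.6 CPM, counting error only). The values at 8 h were 38, 59, 66.9 and 156.0 CPM. The highest collection was that at 12 h, with 76.7, 105.3, 119.2 and 209.7 CPM, which overlapped the one before. Values fell to 15.4, 17.6, 68.6 and 88.4 CPM at 16 h and 5.44, 7.66, 7.8 and 36.5 CPM at 20 h, and the ranges at 12 h and 20 h did not overlap. The fitted curve had an amplitude of 54.4 ± 11.7 CPM and a peak at 10.9 ± 0.823 h (SE, n = 22).

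By library number the courses of HL and LH had another form. Nr1d1 in HL was then 7.38, 11.1 and 15.5 CPM at 0 h, 38, 59 and 66.9 CPM at 4 h and 119.2, 156.0 and 209.7 CPM at 8 h. It was 68.6, 76.7, 88.4 and 105.3 CPM at 12 h, 15.4, 17.6 and 36.5 CPM at 16 h and 5.44, 7.66 and 7.8 CPM at 20 h. The highest collection was at 8 h, as in HH, and no library of 8 h overlapped another collection. The fitted peak of HL lay at 8.59 ± 0.531 h (SE, n = 19) by number, against 15.2 h by title, and the amplitude was 69 ± 9.7 CPM by number.

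For LH by number, Nr1d1 was 8.49, 11.9 and 21.3 CPM at 0 h, 32.3, 39.1 and 41.5 CPM at 4 h and 46.3, 141.8, 152.3 and 161.6 CPM at 8 h. It was 77.6, 86.4, 88.9 and 98.8 CPM at 12 h, 22.7 CPM in the only library at 16 h and 8.98, 14, 14.9 and 63 CPM at 20 h. The collections at 8 h and 12 h overlapped through the library of 46.3 CPM. The peak was at 9.72 ± 0.89 h and the amplitude 50.4 ± 9.64 CPM (SE, n = 19). Over all 18 groups the pooled SD between libraries of a group, on the log2(CPM + 1) scale, was 0.802 by title and 0.583 by number for Nr1d1, 0.594 and 0.38 for Nr1d2 and 0.222 and 0.228 for Thra.

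**Figure D2:**
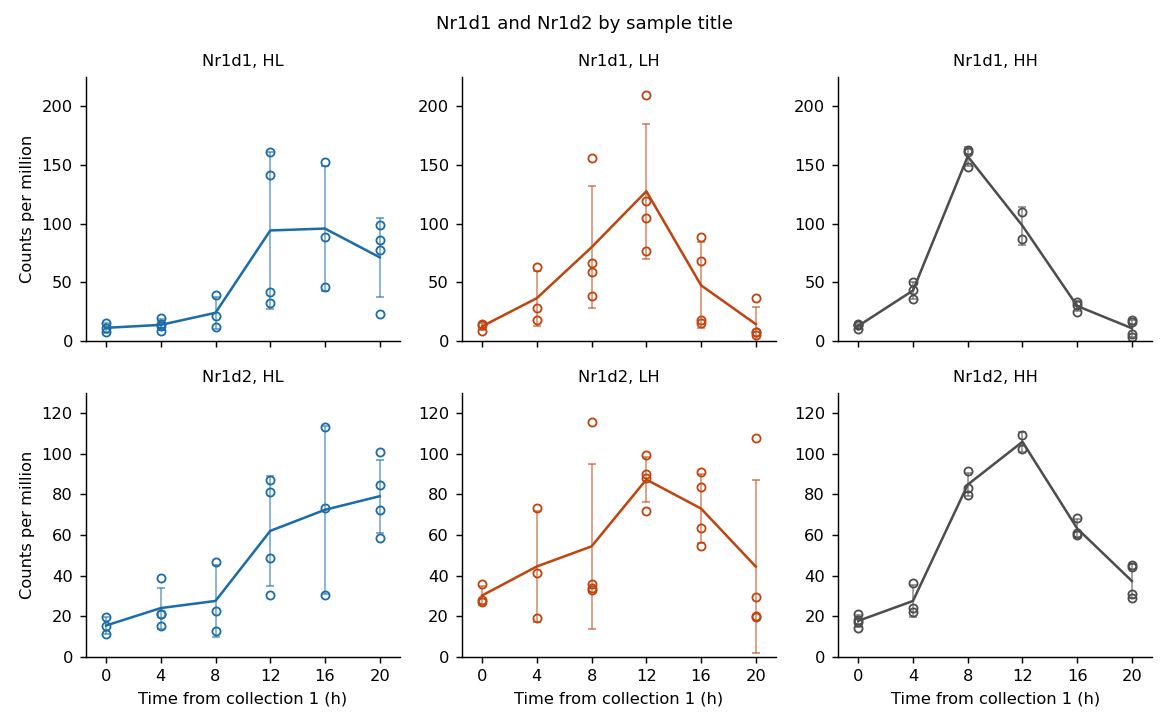
CPM of Nr1d1 (upper row) and Nr1d2 (lower row) against hours from the first collection in HL, LH and HH by sample title; circles are libraries, lines join collection means and bars are SD. In HH the 8 h libraries of Nr1d1 lie at 148.1 to 163.0 CPM, whereas in HL at 12 h they run from 32.3 to 161.6 CPM.

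**Figure D3:**
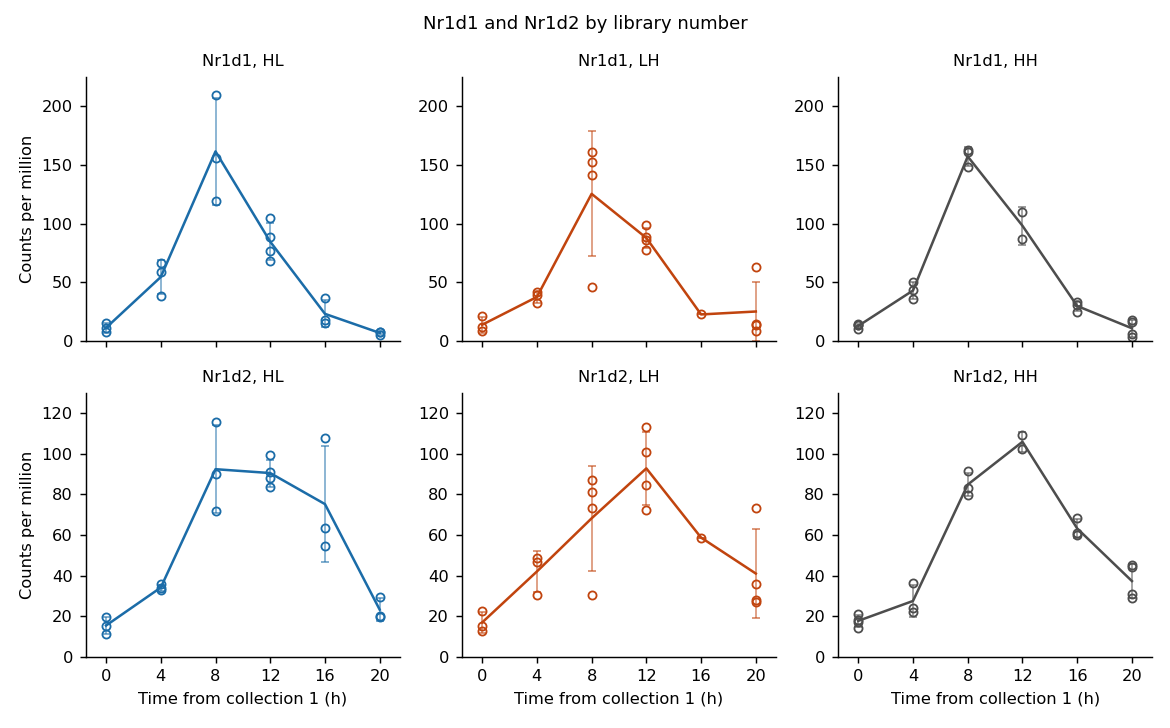
The same values grouped by the name that the read summary gives to each library number; HH is unchanged, and LH at 16 h has 1 library and no SD. Nr1d1 is then highest at 8 h in each treatment, with HL libraries at 119.2 to 209.7 CPM.

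Nr1d2 rose and fell over a smaller range than Nr1d1 and peaked later. In HH it was 14.3, 17.2, 18 and 21.3 CPM at 0 h, 22.1, 23.9 and 36.5 CPM at 4 h and 79.9, 83.3 and 91.3 CPM at 8 h. The 2 libraries at 12 h had 102.5 and 109.3 CPM, the highest of the treatment. Values were 59.8, 61 and 68.6 CPM at 16 h and 29, 30.8, 44 and 45.3 CPM at 20 h. No neighboring collections overlapped in HH. The 12 h mean of 105.9 ± 4.8 CPM (SD, n = 2) was 5.99-fold that at 0 h, 17.7 ± 2.86 CPM (SD, n = 4). The fitted amplitude was 41.8 ± 3.29 CPM, 74.6% of the curve's mean, with a peak at 11.7 ± 0.289 h (SE, n = 19). In HH the peak of Nr1d1 was at 9.25 h.

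By titles, Nr1d2 in HL climbed from 11.4, 15.1 and 19.6 CPM at 0 h to 58.7, 72.3, 84.7 and 100.9 CPM at 20 h. Between them it was 15.2, 21, 21.1 and 38.6 CPM at 4 h and 12.8, 22.7 and 46.9 CPM at 8 h. It was 30.3, 48.9, 81.4 and 87.3 CPM at 12 h and 30.5, 73.5 and 113.1 CPM at 16 h. The first and the last collection did not overlap, and those from 12 h on overlapped one another. The peak of the fit was at 16.3 ± 0.845 h and its amplitude 32.4 ± 7.17 CPM (SE, n = 21).

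Nr1d2 in LH by titles was 27.1, 27.9 and 35.7 CPM at 0 h, 19.1, 41.2 and 73.4 CPM at 4 h and 32.7, 33.8, 35.7 and 115.4 CPM at 8 h. The value of 19.1 CPM rests on 2 reads of the library of 104912 counts (95% exact Poisson interval 2.31 to 68.9 CPM). The collection of 12 h had 72, 88.1, 89.9 and 99.2 CPM, that of 16 h 54.5, 63.2, 83.4 and 91.1 CPM and that of 20 h 19.8, 20.3, 29.6 and 107.8 CPM. A single library lay far above the other 3 at 8 h and at 20 h. The fit had a peak at 12.8 ± 1.15 h and an amplitude of 26.5 ± 8.35 CPM (SE, n = 22).

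By library number, Nr1d2 in HL was 11.4, 15.1 and 19.6 CPM at 0 h, 32.7, 33.8 and 35.7 CPM at 4 h and 72, 89.9 and 115.4 CPM at 8 h. It then was 83.4, 88.1, 91.1 and 99.2 CPM at 12 h, 54.5, 63.2 and 107.8 CPM at 16 h and 19.8, 20.3 and 29.6 CPM at 20 h. The collections from 8 h to 16 h overlapped and stood above the others. In LH by number the means rose from 16.9 ± 5.18 CPM at 0 h (SD, n = 3) to 92.8 ± 17.9 CPM at 12 h (SD, n = 4). The fitted peaks by number were 11.3 ± 0.438 h in HL and 12 ± 0.682 h in LH (SE, n = 19 each), with amplitudes of 43.4 ± 4.75 and 34.1 ± 5.74 CPM. In every treatment and under both names the peak of Nr1d2 was later than that of Nr1d1; the curves of the 2 genes come from the same libraries, and the difference was not tested.

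Thra differed little over the collections beside the Rev-Erb genes. By titles it did not pass the test of rhythm in HL. JTK_CYCLE, which compares the order of the libraries of a treatment with that of 24 h cosine curves of 12 phases, returned an exact JTK P of 1. The values were 435.1, 450.5 and 490.0 CPM at 0 h, 415.7, 444.0, 454.9 and 486.4 CPM at 4 h and 405.0, 413.6 and 498.9 CPM at 8 h. They were 410.7, 462.1, 478.4 and 504.1 CPM at 12 h, 378.5, 405.1 and 637.6 CPM at 16 h and 319.6, 365.3, 411.4 and 574.1 CPM at 20 h. Every collection overlapped every other one, and the spread between libraries was largest at 16 h and 20 h. The fitted amplitude, 11 ± 22.7 CPM (SE, n = 21), was smaller than its error. Neither the P nor the fit shows that Thra was level over the day in HL.

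In HH, Thra was 395.6, 411.2, 432.0 and 479.6 CPM at 0 h, 492.1, 544.5 and 658.3 CPM at 4 h and 441.5, 460.4 and 527.3 CPM at 8 h. The 2 libraries at 12 h had 303.2 and 475.3 CPM. Values were 315.8, 352.5 and 365.6 CPM at 16 h and 244.0, 348.7, 397.2 and 486.4 CPM at 20 h. Libraries of 4 h all lay above those of 16 h, with means of 565.0 ± 85 and 344.6 ± 25.8 CPM (SD, n = 3 each). The exact JTK P was 0.00517, under the threshold of 0.01 that 1.99% of the 13292 genes tested passed in HH. After Benjamini-Hochberg adjustment over those genes the JTK P was 0.395. The fit had an amplitude of 98.1 ± 22.9 CPM, 22.9% of its mean, and a peak at 4.87 ± 0.907 h (SE, n = 19). The call was lost without replicate 1, 2 or 3 of HH (exact JTK P of 0.0173, 0.0175 and 0.033) and in the second sequencing run alone (0.0325).

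In LH by titles, Thra was 361.2, 396.4 and 417.4 CPM at 0 h, 440.4, 457.5 and 577.2 CPM at 4 h and 482.1, 488.8, 493.4 and 508.3 CPM at 8 h. It was 346.2, 346.7, 438.9 and 470.6 CPM at 12 h, 322.2, 335.2, 345.7 and 428.3 CPM at 16 h and 392.7, 417.0, 420.0 and 433.8 CPM at 20 h. All 8 h libraries lay above all of those at 12 h or later. The exact JTK P was 0.00221 (adjusted 0.489), in a treatment where 1.51% of genes passed the threshold by title. The amplitude was 61.2 ± 15.1 CPM and the peak 5.38 ± 0.952 h (SE, n = 22). The P rose to 0.0325 without replicate 1 of LH, to 0.0117 without replicate 3 and to 0.123 with CPM scaled by TMM, an edgeR scaling of library sizes.

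Most libraries of HL by library number were titled LH, and the reverse. By number the test of Thra passed in HL and not in LH. In HL it was 435.1, 450.5 and 490.0 CPM at 0 h, 488.8, 493.4 and 508.3 CPM at 4 h and 438.9, 470.6 and 482.1 CPM at 8 h. It was 345.7, 346.2, 346.7 and 428.3 CPM at 12 h, 322.2, 335.2 and 420.0 CPM at 16 h and 392.7, 417.0 and 433.8 CPM at 20 h. The first 3 collections thus lay above the last 3 with no overlap. The exact JTK P was 4.88e-06 (adjusted 0.0107), with 1.82% of 13198 genes past the threshold, and the fit had a peak at 3.28 ± 0.56 h (SE) and an amplitude of 71.4 CPM, 16.8% of its mean (n = 19). In LH by number the exact JTK P was 0.419, the amplitude 39 ± 28.7 CPM (SE, n = 19), and 2.14% of genes passed. HH kept its values. Whether the rhythm of Thra differed between treatments was not tested.

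**Figure D4:**
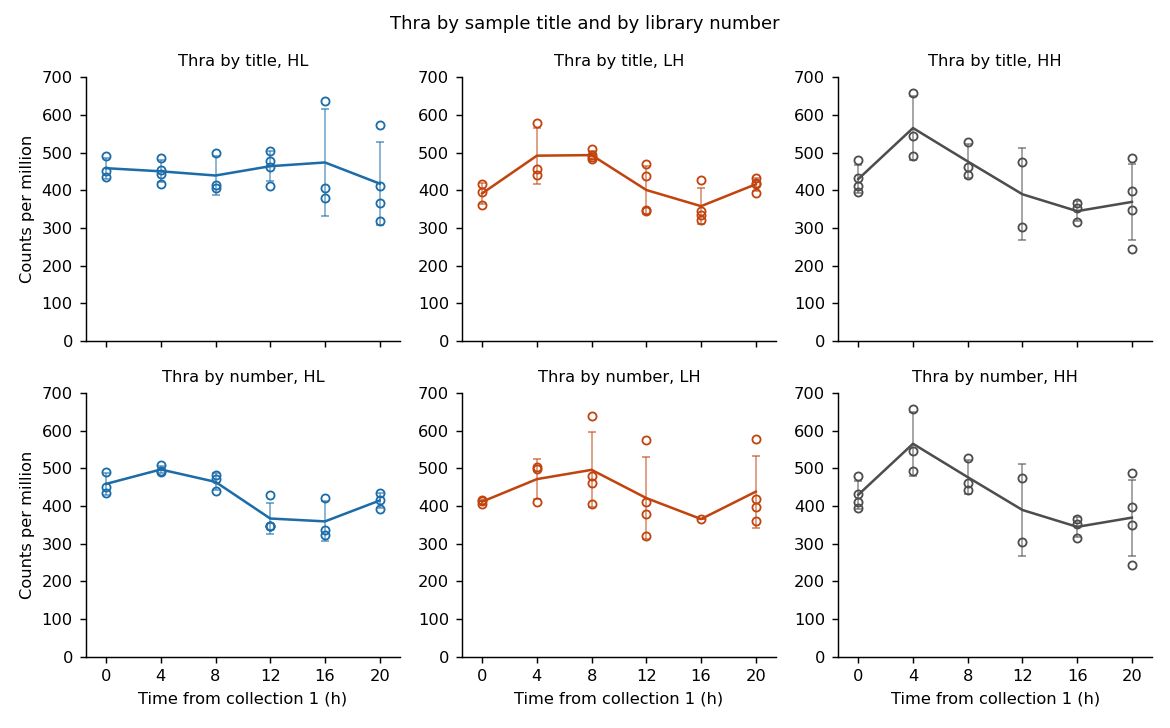
CPM of Thra against hours from the first collection by sample title (upper row) and by library number (lower row); circles are libraries, lines join collection means and bars are SD, with 1 library and no SD for LH at 16 h by number. HH is high at 4 h (492.1 to 658.3 CPM) and low at 16 h (315.8 to 365.6 CPM), and HL shows a similar fall by number and none by title.

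Ordered by mean, the 18 groups by titles formed a nearly unbroken series in each gene. For Nr1d1 the order ran from HH at 8 h to HH at 20 h, and each of the 17 pairs of neighbors overlapped. For Nr1d2 it ran from HH at 12 h to HL at 0 h, and 16 of 17 neighboring pairs overlapped, the exception being the highest group, HH at 12 h, above LH at 12 h (87.3 ± 11.3 CPM, SD, n = 4). For Thra it ran from HH at 4 h to HH at 16 h, and all 17 pairs overlapped. By number 15, 15 and 17 of 17 pairs did. Sorting by mean places like groups side by side, so these counts do not show that the collections of a treatment overlapped.

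The mean level over all collections did not pass the test between treatments in any of the 3 genes. edgeR's quasi-likelihood test, with treatment and collection as terms, called 0 of 13292 genes (0%) at an adjusted p under 0.05 in each comparison by titles. At an unadjusted p under 0.05 it called 756 genes between LH and HL (5.69%), 986 between HH and HL (7.42%) and 695 between LH and HH (5.23%), and DESeq2 called 0 after adjustment and 796, 1019 and 731 without it, giving no adjusted p to 11083 genes between HH and HL, Nr1d1 and Nr1d2 among them. By library number edgeR called 2 (0.0152%), 1 (0.00758%) and 3 (0.0227%) of 13198 genes after adjustment in the same order, none of them Nr1d1, Nr1d2 or Thra. The 3 comparisons share libraries, so their values stand side by side only. Nr1d1 averaged 52.9 ± 50.3 CPM in HL (SD, n = 21), 55.7 ± 53.8 in LH (n = 22) and 51.7 ± 54.2 in HH (n = 19), with an SD over all collections about as wide as the mean in each. Its log2 fold change was -0.27 ± 0.33 for LH against HL (SE; edgeR adjusted p = 0.983), -0.23 ± 0.36 for HH against HL (0.912) and -0.04 ± 0.33 for LH against HH (0.999). The fit, on a log scale within collections, thus put Nr1d1 lower in LH than in HL and lower in LH than in HH, while the plain means were higher in LH. By number these fold changes were 0.27 ± 0.20, 0.08 ± 0.20 and 0.19 ± 0.20, of the other sign. The plain mean by number was lower in HH (51.7 CPM) than in HL (58.5 CPM), opposite to that fit. An interval of 2 SE around the LH to HL value ran from -0.94 to 0.40 by title.

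Nr1d2 averaged 47.9 ± 32.2 CPM in HL, 57.3 ± 31.8 in LH and 50.4 ± 31 in HH (SD, n = 21, 22 and 19). The log2 fold changes were 0.31 ± 0.21 for LH against HL (SE; edgeR adjusted p = 0.928), 0.11 ± 0.22 for HH against HL (0.94) and 0.20 ± 0.21 for LH against HH (0.911). By number they were 0.14 ± 0.13, 0.05 ± 0.13 and 0.09 ± 0.13. The plain means by number were 57 CPM in HL, 54.9 in LH and 50.4 in HH. Against HL they thus had the sign opposite to the fit for both LH and HH. Thra, the steadiest of the 3, averaged 449.6 ± 70.3 CPM in HL, 423.6 ± 65.1 in LH and 428.0 ± 97.3 in HH. Its log2 fold changes were -0.13 ± 0.08 for LH against HL (SE; edgeR adjusted p = 0.906), -0.15 ± 0.08 for HH against HL (0.707) and 0.03 ± 0.08 for LH against HH (0.983). By number these fold changes were 0.11 ± 0.08, -0.01 ± 0.08 and 0.13 ± 0.08, so the sign for LH against HL depended on the naming. The plain means had the sign opposite to the fit between LH and HH by title and between HH and HL by number. By title, differences of Thra beyond -0.32 or 0.01 (log2, HH against HL) lay outside the 2 SE interval. By number that interval ran from -0.18 to 0.15.

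The error of repeated sequencing is contained in the spread between libraries. In 55 libraries both runs had over 1000000 counts, and between the runs of a library the log2(CPM + 1) of Nr1d1 varied with an SD of 0.18, that of Nr1d2 with 0.163 and that of Thra with 0.0505. The SD between libraries of one title group was 0.788, 0.585 and 0.215. In the 61 libraries of over 1000000 counts, Nr1d1 had 15 to 1344 reads, Nr1d2 60 to 804 and Thra 941 to 4795.

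Across these 61 libraries, with names left aside, Nr1d1 and Nr1d2 followed each other and Thra had weaker relations with both. Pearson's r of log2(CPM + 1) was 0.774 between Nr1d1 and Nr1d2 (Spearman's rho 0.798), 0.263 between Nr1d1 and Thra (rho 0.244) and -0.198 between Nr1d2 and Thra (rho -0.159). Within HL, LH and HH by title, r was 0.907, 0.788 and 0.669 for Nr1d1 with Nr1d2 and -0.0433, 0.314 and 0.44 for Nr1d1 with Thra (n = 21, 21 and 19). These are descriptions: libraries of one collection share their time of day, and a level here is a share of the library. Nr1d2 was the nearest of 7782 genes with a mean of at least 10 CPM to Nr1d1, while Thra was 769th, in a set whose lower and upper quartiles of r were -0.0608 and 0.161. The next nearest to Nr1d1 were Bhlhe41, a clock repressor (r = 0.699), Dbp, a PAR bZIP activator driven by E-boxes (0.689), the translation initiation factor Eif4b (0.646) and the ER chaperone Fkbp7 (0.642). The lowest were Smpdl3b (-0.672), the clock repressor Cry1 (-0.62) and Dpy19l1 (-0.548).

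Among the same genes of at least 10 CPM, Nr1d2 stood closest to Dbp (r = 0.894) and Tef (0.872), another PAR bZIP activator, ahead of Nr1d1, then to Bhlhe41 (0.761) and Gpr146 (0.628). Its lowest were Medag (-0.618), the metalloproteinase inhibitor Timp1 (-0.598) and Peg10 (-0.595). Thra had none of these among its neighbors. It stood closest to Deptor, an inhibitor of mTOR (0.689), the kinase Map4k4 (0.684), the sheddase Adam17 (0.668), the calcineurin subunit Ppp3ca (0.663) and Aldh1l2 (0.658), and farthest from Gstm5 (-0.67), Pdp1 (-0.661) and Ifi205 (-0.64).

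**Figure D5:**
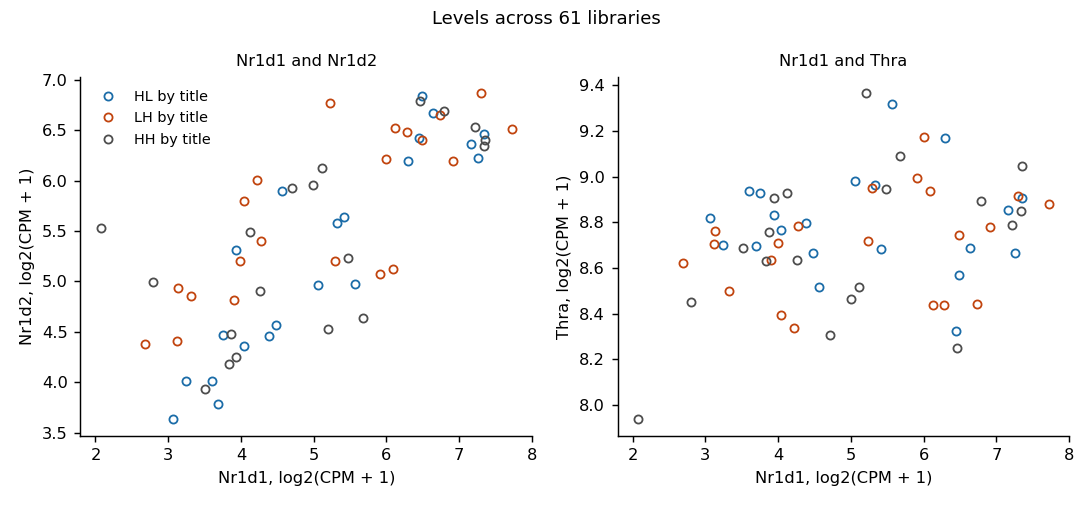
log2(CPM + 1) of Nr1d2 (left) and Thra (right) against that of Nr1d1 in the 61 libraries of over 1000000 counts, colored by treatment in the titles; each circle is a library. Nr1d2 rises with Nr1d1 (r = 0.774), and the relation of Thra to Nr1d1 is weaker (r = 0.263).

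Other genes of the pathway were taken from lists of 44 genes chosen for their known roles, of which 39 were measured well enough to be tested by title. The lists were made with earlier results of these data known. Their counts past the threshold are therefore a description and not an independent test. By titles 2 of 39 passed the JTK threshold in HL, where 0.820% of all genes did, 6 in LH (1.51% of all genes) and 9 in HH (1.99%). By number 10 of 38 passed in HL (1.82% of all genes) and 7 in LH (2.14%). These shares over all genes apply to the counts of each list that follow. The median exact JTK P of the lists was 0.822, 0.484 and 0.221 in HL, LH and HH by title, against 1 over all genes in each. Nr1d1, Nr1d2 and Thra are not in these counts, and leaving out replicates was not run for them.

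Among 6 targets that REV-ERB proteins repress, the titles gave 1 past the threshold in HL and 3 each in LH and HH. In HH these were Arntl (exact JTK P = 8.16e-04, peak 0.756 ± 0.635 h, SE), the repressor Nfil3 (1.00e-03, peak 23.9 ± 0.802 h) and Cry1 (2.95e-04, peak 18.3 ± 0.623 h). These peaks fell at other hours than that of Nr1d1, at 9.25 h. In LH by titles the same 3 genes passed, with peaks at 2.53 ± 0.778, 1.15 ± 0.813 and 23 ± 0.889 h, and in HL Nfil3 alone did, at 3.86 ± 0.656 h. By number Arntl, Nfil3 and Cry1 passed in HL (peaks 23.6, 22.1 and 18.8 h) and Nfil3 and Clock in LH. Clock peaked there at 3.73 ± 0.691 h. Npas2 passed nowhere. Across the 61 libraries Arntl had r of -0.572 with Nr1d1 and -0.719 with Nr1d2, and Nfil3 -0.762 and -0.753.

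The RNA of genes whose proteins act with or against REV-ERB gave no rhythm past the threshold. This held for the competitors Rora and Rorb, for the corepressor genes Ncor1, Hdac3, Tbl1x, Tbl1xr1 and Gps2, and for 5 genes of kinase or ubiquitin ligase roles in REV-ERB turnover, such as Gsk3b and Siah2, in each treatment under both names. A P over the threshold does not show that these genes were level over the day.

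Of 10 outputs of BMAL1 and CLOCK, the class to which Nr1d1 and Nr1d2 themselves belong, the titles gave 1 past the threshold in HL, 3 in LH and 5 in HH. The 5 in HH were Dbp (exact JTK P = 6.63e-05, peak 11.9 ± 0.39 h, SE), Tef (9.02e-07, peak 12.8 ± 0.224 h), Per3 (1.26e-04, peak 12.9 ± 0.69 h), Bhlhe41 (1.47e-03, peak 11.3 ± 0.431 h) and Cry2 (1.23e-03, peak 14.4 ± 0.814 h). Their peaks were within a few hours of that of Nr1d2, at 11.7 h. After adjustment over all genes at 0.05, Tef was the one list gene that passed in HH, with an adjusted JTK P of 0.004, and no list gene passed in HL or LH by titles. In HL by titles Dbp passed (peak 17.1 ± 1.02 h), near the Nr1d2 peak of 16.3 h under the same names. In LH by titles Hlf, Per3 and Bhlhe41 passed, with peaks at 17.6, 14.2 and 12.8 h. By number 6 passed in HL, namely Dbp, Tef, Per2, Per3, Ciart and Bhlhe41 (peaks 10.3 to 13 h), and 5 in LH, namely Dbp, Tef, Hlf, Ciart and Bhlhe41 (peaks 11.1 to 14.7 h). In HL by number, adjustment over all genes left Dbp and Tef (adjusted JTK P of 0.000632 each), Per2, Per3 and Bhlhe41 (0.043 each) and, among the REV-ERB targets, Nfil3 (0.00544) and Cry1 (0.0185). In LH by number it left none of the list genes.

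In the thyroid hormone receptor pathway, 9 of 14 genes were tested and 5 were not, among them the deiodinases Dio1 and Dio3. None passed in HL or LH by titles. In HH the partner receptor Rxra passed (exact JTK P = 9.1e-03, peak 6.82 ± 1.34 h, SE), with a mean of 37.3 CPM and an amplitude of 10.6% of it. By number Rxrb passed in HL (5.17e-03, peak 8.82 ± 1.31 h). Thrb, the second thyroid hormone receptor gene, and Klf9, a known target of the hormone, passed in no treatment under either name. Across libraries Thrb had r of 0.164 with Thra and 0.26 with Nr1d1.

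In mean level, edgeR called 0 of the 39 list genes after adjustment in each comparison. At an unadjusted p under 0.05, 4 of 39 passed between LH and HL, where 5.69% of all genes did, 1 between HH and HL (7.42% of all genes) and 1 between LH and HH (5.23%), so the last 2 counts lay below the share over all genes. The median log2 fold change of the lists was 0.06, 0.05 and 0.07 in that order, and over all genes 0.0013, 0.0023 and -0.0002.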

How the data were processed

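RNA of Per2::Luc fibroblasts was sequenced by 3′DGE in 62 libraries. The submitters' processing notes name bcl2fastq, STAR 2.6.0a, HTSeq 0.9.1 and mm10, and the authors deposited raw counts of uniquely aligned reads per Ensembl gene, 1 set per sequencing run (121 sets). The strand setting and the release of the annotation: not given in the sources used here. Summary lines without a gene, such as reads on no feature (18.4% to 29.1% of unique reads), did not enter totals. Symbols of 30934 of 31053 genes and all positions came from GENCODE M21 (GRCm38).

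Counts of the runs were summed, and CPM is the count per 1000000 counts of the library. Collections were taken as 4 h apart, because the clock hours in the labels repeat within a treatment. In collections 3 and 4 the label hours also differ between LH and the other treatments, and their order is not in steps of 4 h. All hours given here, and the peaks of LH beside those of HL and HH, rest on the collection numbers. Tests used genes that reached 1 cpm in 3 or more libraries. Levels were tested by edgeR 4.0.16 (TMM, quasi-likelihood, Benjamini-Hochberg) with DESeq2 1.42.0 as an alternative. JTK_CYCLE was written anew with the exact null of its statistic (24 h, phases in steps of 2 h, Bonferroni over phases). It was first checked against full enumeration and on artificial counts, as was edgeR. A group had 2 to 4 libraries by title and 1 to 4 by number, which limits precision; the counting interval covers counting error only. By title, deviations of same-numbered libraries of other groups had a median r of 0.00157, and those of other-numbered libraries 0.000391. Because many titles are in doubt, this cannot decide whether replicate numbers pair libraries.

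The 3 genes and all lists were chosen with earlier results of these data known. Named are these genes, list genes past the JTK threshold, the 5 highest and 3 lowest correlations with each gene, markers, and list genes given as examples, whose values were seen. Alternatives were the library numbers, other scaling, no low filter, each run alone, a depth minimum, a replicate block and leaving out each replicate. A few list genes are not reported here by name.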

Additional observations from a re-analysis of the deposited data

Results flagged for a closer look

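In groups of 4 libraries, the highest or lowest value was set apart by its gap to the nearest other, against Dixon's 95% critical value; chance marks about 1 in 20 groups, and 3 of 27 groups of the 3 genes by title were marked, all in LH and all for a high value. Nr1d1 in LH at 20 h was 36.5 CPM in replicate 1, above 5.44, 7.66 and 7.8 CPM. The same library was apart in Nr1d2, with 107.8 CPM above 19.8, 20.3 and 29.6 CPM. It had 4350411 counts. Nr1d2 in LH at 8 h was 115.4 CPM in replicate 4, above 32.7, 33.8 and 35.7 CPM, in a library of 6454806 counts. The read summary gives both library numbers to HL, where the first stands in the collection at 16 h and the other in that at 8 h. The cause was not tested.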

How the results depend on the processing

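Grouping by library number moved more results than any other choice. It renames 35 libraries and also leaves out the 5 whose number is not listed, and these changes were not separated. By library number the log2 fold change of Nr1d1 became 0.27 (LH against HL), 0.08 (HH against HL) and 0.19 (LH against HH), that of Thra 0.11 (LH against HL), the peak of Nr1d1 in HL 8.59 h and of Nr1d2 in HL 11.3 h, and the exact JTK P of Thra 4.88e-06 in HL and 0.419 in LH. With TMM-scaled CPM that P was 0.123 in LH, and in the second run alone 0.0325 in HH. Leaving out replicates gave an exact JTK P of Thra of 0.00202 to 0.0325 in LH and 0.0091 to 0.033 in HH, and log2 fold changes for LH against HL, HH against HL and LH against HH of -0.60 to -0.07, -0.49 to -0.03 and -0.37 to 0.12 for Nr1d1, 0.09 to 0.42, -0.07 to 0.22 and 0.02 to 0.30 for Nr1d2, and -0.18 to -0.07, -0.25 to -0.10 and -0.03 to 0.12 for Thra. With a replicate block, Nr1d1 between LH and HH was 0.00 (edgeR adjusted p = 1); the block changed no call, and 0 genes passed after adjustment, as without it. Within HL by titles r of Nr1d1 was 0.907 with Nr1d2 and -0.0433 with Thra (n = 21), and within HH 0.669 and 0.44 (n = 19). By number the amplitude in HL was 69 against 49.8 CPM for Nr1d1 (SE by title 11.4) and 43.4 against 32.4 CPM for Nr1d2 (SE by title 7.17).

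By titles no level of the 3 genes passed the test under any alternative that gave an adjusted p, which DESeq2 did not for Nr1d1 and Nr1d2 between HH and HL, and sizes under about 2 SE could not be told from 0. The cause of each change was not tested. Low reads limit Nr1d1 and Nr1d2 in the library of 104912 counts.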
